A study of Bos taurus with 14 samples.

Results

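Perilipins coat the lipid droplets that store triglyceride inside muscle fibres, and a small set of lipases and their cofactors release fatty acids from those droplets. The 9 genes examined here are 4 perilipins (*PLIN5*, *PLIN2*, *PLIN3* and *PLIN4*), 3 lipases (*PNPLA2*, *LIPE* and *MGLL*), the *PNPLA2* co-activator *ABHD5* and the *PNPLA2* inhibitor *G0S2*. A gene was included through every probe set whose only gene symbol in the array annotation is that gene, which gave 10 probe sets for 7 of the 9 genes, out of 24016 probe sets and 9155 gene symbols on the array. No probe set carries the symbol *PLIN4* or *MGLL*, so they were not analysed here.

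Expression was measured in *M. longissimus dorsi* (LD), the loin muscle, of 14 Charolais × Limousin heifers, with 1 Affymetrix bovine array per animal. The 7 outdoor/pasture-fed heifers grazed ryegrass, meadow grass and white clover, and the 7 indoor/concentrate-fed heifers were housed and given concentrate with barley straw, each for a year before slaughter. The sample labels give no age, and the animals carry no engineered allele. Diet, housing and movement differ together between the groups and cannot be told apart. The RNA comes from whole muscle, in which fewer cells of a type and less RNA per cell cannot be told apart. The animals were managed in several groups within each system, which the labels do not record, and the tests treat each animal as independent.

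In skeletal muscle, *PLIN5* is the perilipin most tied to oxidative fibres. Its protein sits on droplets next to mitochondria, binds *ABHD5* and *PNPLA2*, and holds back lipolysis at rest. *PLIN2* is the widely expressed coat protein whose level follows stored lipid, and *PLIN3* is a cytosolic protein that moves onto young droplets. *PNPLA2* (adipose triglyceride lipase) removes the first fatty acid from triglyceride and *LIPE* (hormone-sensitive lipase) hydrolyses the resulting diglyceride, after which *MGLL* cleaves the monoglyceride.

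The deposited values are log2 expression values summarised per probe set with FARMS, a factor analysis method. It gives a probe set nearly the same value on every array where its probes do not vary together between arrays. Such flat probe sets, with a standard deviation (SD) of at most 0.01 over the 14 arrays, make up 59.9% of the array (14393), and the other 9623 are called varying. Flat does not mean undetected: the muscle fibre markers *ACTA1* (14.11) and *TNNT3* (14.16) read high and were flat. The array medians all lay between 6.77 and 6.84, and no 2 arrays were identical. The 3′ minus 5′ signal of the *EF1A* control probes, a measure of RNA integrity, was -2.38 to -1.64 outdoors and -1.91 to -1.28 indoors (exact permutation test, two-sided, p = 0.0973). The 5′ *EF1A* probe set thus read higher than the 3′ one on every array, though levels of 2 probe sets cannot be compared. For *GAPD* the signal was -0.06 to 0.03 outdoors and -0.07 to 0.01 indoors (exact permutation test, two-sided, p = 0.195). For actin it was flat at 0.52, which gives no comparison between arrays. The tissue label holds: the 4 varying muscle fibre markers, which include slow myosin *MYH7* and desmin, averaged 13.63 to 13.74 outdoors and 13.57 to 13.75 indoors.

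Of the 10 probe sets, 5 vary, 1 each for *PLIN5*, *PLIN2*, *PLIN3*, *PNPLA2* and *LIPE*. The other 5 are flat: 3 of the 4 *LIPE* probe sets stood at 5.73, 5.68 and 5.62, the *ABHD5* probe set at 6.67 and the *G0S2* probe set at 6.24. No group difference is given for these, so the co-activator and the inhibitor of *PNPLA2* have no measured comparison. The *LIPE* values below therefore rest on 1 probe set of 4. In the reference annotation (ARS-UCD2.0), *PLIN4* lies directly next to *PLIN5* and *PLIN3* is on the same chromosome with 14 genes between it and *PLIN5*.

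Of the 5 genes with a varying probe set, *PLIN5* was the one whose groups did not overlap. It was about 2-fold higher outdoors. *PNPLA2* and *LIPE* were on average higher outdoors by smaller amounts, *PLIN3* differed by 0.01 and *PLIN2* was on average lower outdoors. In the limma fit over all probe sets none of the 5 passed a Benjamini-Hochberg adjusted p of 0.05, against 0.0167% of all probe sets. Among varying probe sets alone *PLIN5* passed, against 0.343% of them.

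The *PLIN5* probe set read 7.66, 7.92, 8.18, 8.30, 8.37, 8.52 and 8.82 in the outdoor/pasture-fed heifers, against 6.57, 6.70, 6.77, 7.38, 7.49, 7.55 and 7.58 in the indoor/concentrate-fed heifers, on the log2 scale. Every outdoor value lay above every indoor value, with a gap of 0.08 between the lowest outdoor and the highest indoor animal. Indoors 3 animals sat apart at 6.57 to 6.77 and 4 lay between 7.38 and 7.58. The share of varying probe sets with every outdoor array above every indoor array was 0.488%.

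*PLIN5* averaged 8.25 ± 0.38 outdoors and 7.15 ± 0.45 indoors (SD, n = 7 each). The difference was 1.11 (SE 0.22, 95% interval 0.63 to 1.59), which is 2.15-fold. It was the 13th highest difference among the 9623 varying probe sets. The limma adjusted p was 0.147 when all probe sets were tested and 0.0368 when the varying ones were, and the exact permutation test gave 0.000583 (two-sided), the smallest p that 7 against 7 allows. The study had picked out *PLIN5* on these same arrays, so this difference is not independent evidence of its direction. The call among varying probe sets was lost when any 1 of 8 arrays was left out, as described with the other settings in the closing section.

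*PLIN2* read 6.13 at the lowest, 6.39 at the median and 6.87 at the highest outdoors, against 6.24, 6.58 and 7.34 indoors. The groups overlapped over most of their range, and 2 indoor animals (7.22 and 7.34) stood above every outdoor animal. The mean was 6.41 ± 0.26 outdoors and 6.70 ± 0.42 indoors (SD, n = 7 each), a difference of -0.29 (95% interval -0.69 to 0.11), with limma adjusted p-values of 0.59 over the whole array and 0.355 among varying probe sets. The interval reaches a fall outdoors of 0.69 and a rise of 0.11.

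*PLIN3* read 7.57 to 7.75 outdoors with a median of 7.63, against 7.44 to 8.18 indoors with a median of 7.60. The outdoor animals lay close together, and the indoor animals spread widely because of replicate 2 at 8.18. The difference was 0.01 (95% interval -0.20 to 0.22), with a limma adjusted p of 0.985 over all probe sets. Without indoor replicate 2 it was 0.10.

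**Figure D1:**
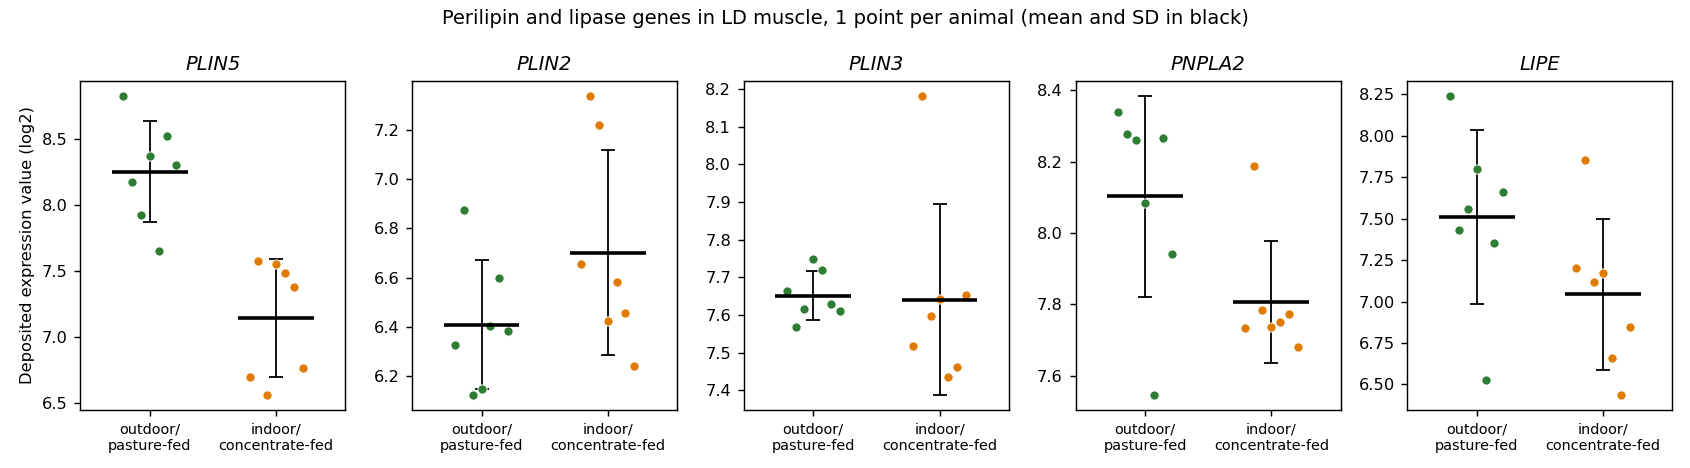
Deposited log2 expression values of the 5 varying perilipin and lipase probe sets, 1 point per animal with outdoor/pasture-fed on the left of each panel, a black line at the mean and bars of 1 SD (n = 7 each). The vertical axes differ between panels. *PLIN5* points of the groups do not overlap, while *PLIN3* and *PNPLA2* each show 1 indoor animal near 8.18 above the other indoor animals.

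*PNPLA2* read 7.55, 7.94, 8.08, 8.26, 8.27, 8.28 and 8.34 outdoors, against 7.68, 7.73, 7.74, 7.75, 7.77, 7.78 and 8.19 indoors. Outdoors 4 animals were above every indoor animal, while outdoor replicate 5 was below all of them. Indoors 6 of the 7 animals lay within 7.68 to 7.78. The mean was 8.10 ± 0.28 outdoors and 7.81 ± 0.17 indoors (SD, n = 7 each), a difference of 0.30 (95% interval 0.03 to 0.56) or 1.23-fold. This did not pass after adjustment (limma adjusted p = 0.388 over the whole array and 0.194 among varying probe sets, exact permutation p = 0.039 unadjusted).

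*LIPE* read 6.53 at the lowest, 7.56 at the median and 8.24 at the highest outdoors, against 6.44, 7.12 and 7.85 indoors. The groups overlapped broadly. The mean was 7.51 ± 0.52 outdoors and 7.04 ± 0.46 indoors (SD, n = 7 each), a difference of 0.47 (95% interval -0.10 to 1.03), with limma adjusted p-values of 0.532 over the whole array and 0.302 among varying probe sets.

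By unadjusted p below 0.05 in the limma fit over all probe sets, 2 of the 5 varying probe sets (*PLIN5* and *PNPLA2*) were higher outdoors and none was lower, against 9.23% of varying probe sets higher and 10.7% lower. The median difference of the 5 was 0.30, against -0.01 over all varying probe sets. The intervals of *PLIN2*, *PLIN3* and *PNPLA2* end at 0.11, 0.22 and 0.56, below the lower end of the *PLIN5* interval at 0.63, and the *LIPE* interval, which ends at 1.03, overlaps it.

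Whether *PLIN5* differed between the systems by more than the other genes was tested directly, on the difference *PLIN5* minus the other gene within each array. Since each probe set has its own binding strength, such a value has no meaning as a level, and only its change between groups was read. Probe sets may also differ in how far their value moves for the same change in RNA. The part of this in the contrasts below was not tested. There were 4 contrasts, with p-values from two-sided exact permutation tests adjusted over the 4 by Benjamini-Hochberg. The group difference of *PLIN5* exceeded that of each of the 4 other genes. Since the study had picked *PLIN5* for its difference on these arrays and not the other genes, a larger difference was favoured by that choice, and these p-values are not independent evidence.

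Against *PLIN2*, the within-array difference ran from 1.25 to 2.50 outdoors, against -0.65 to 1.13 indoors, with no overlap. It averaged 1.84 ± 0.45 outdoors and 0.44 ± 0.62 indoors (SD, n = 7 each). The *PLIN5* group difference was larger than that of *PLIN2* by 1.40 (95% interval 0.77 to 2.03, exact permutation p = 0.000583, adjusted p = 0.00233), and all 7 outdoor animals were above every indoor animal. *PLIN2* read low: its means of 6.41 outdoors and 6.70 indoors lay below the array medians of 6.77 to 6.84. The flat *ABHD5* probe set stood at a similar level, 6.67. The part of this low signal in the contrast was not tested.

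Against *PLIN3*, it was larger by 1.10 (95% interval 0.61 to 1.59, exact permutation adjusted p = 0.00233), and the within-array values were 0.60 ± 0.39 outdoors and -0.49 ± 0.44 indoors (SD, n = 7 each). Against *PNPLA2*, the lipase that its protein binds, it was larger by 0.81 (95% interval 0.40 to 1.22, exact permutation adjusted p = 0.00233), with 0.15 ± 0.29 outdoors and -0.66 ± 0.40 indoors. In both of these contrasts 6 of 7 outdoor animals were above every indoor animal.

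Against *LIPE* the margin was narrower, 0.64 (95% interval 0.08 to 1.20, exact permutation adjusted p = 0.0338), with 0.74 ± 0.30 outdoors and 0.10 ± 0.62 indoors (SD, n = 7 each). Only 2 of 7 outdoor animals were above every indoor animal in this contrast. Leaving out outdoor replicate 5 or 6, or indoor replicate 1, 2, 3 or 7, took its adjusted p to between 0.0589 and 0.0653.

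**Figure D2:**
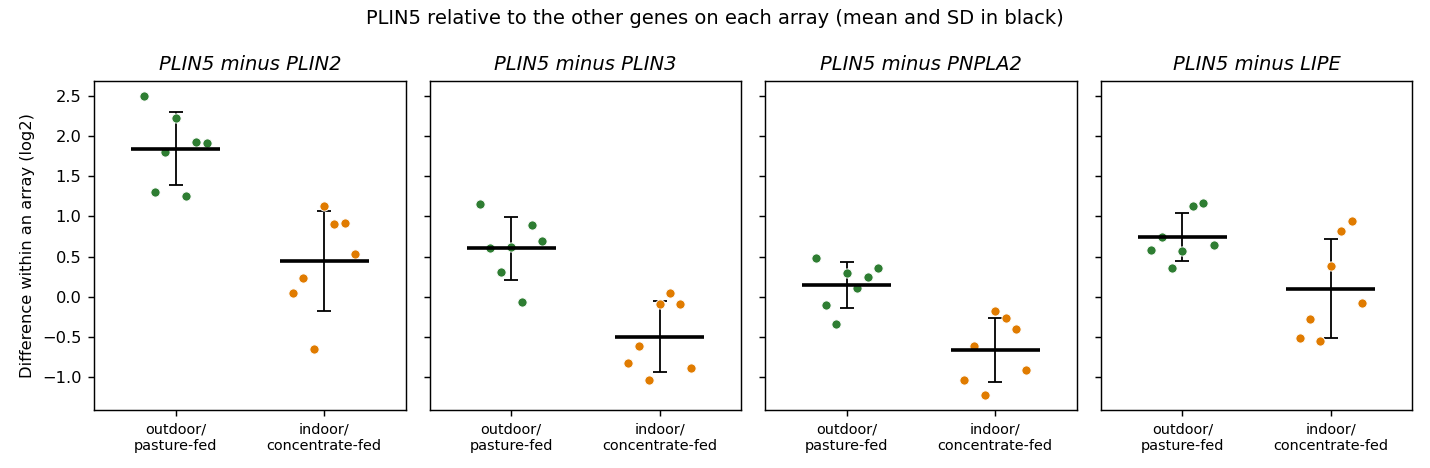
Within-array log2 difference of *PLIN5* minus *PLIN2*, *PLIN3*, *PNPLA2* or *LIPE*, 1 point per animal with outdoor/pasture-fed on the left, a black line at the mean and bars of 1 SD (n = 7 each). Only the change between groups can be read, which is 1.40 for *PLIN2*, 1.10 for *PLIN3*, 0.81 for *PNPLA2* and 0.64 for *LIPE*.

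The same animals stood at the ends of several genes. Outdoor replicate 1 had the highest *PLIN5*, *PNPLA2* and *LIPE* of its group and outdoor replicate 5 the lowest of all 3 genes. Indoor replicate 2 had the highest indoor value of all 5 genes. With the group means removed, *PNPLA2* and *LIPE* had a Pearson r of 0.74 over the 14 arrays, *PLIN5* had 0.55 with *PNPLA2* and 0.44 with *LIPE*, and *PLIN5* had -0.01 with *PLIN2*. Within groups *PNPLA2* and *LIPE* had r = 0.75 outdoors and 0.75 indoors. Without the 2 animals farthest from the *PNPLA2* median it was 0.12 outdoors and -0.42 indoors, so this relation rests on those animals. *PLIN5* and *PNPLA2* had r = 0.67 outdoors and 0.44 indoors. Without the 2 animals farthest from the *PLIN5* median it was -0.25 outdoors and 0.50 indoors. All these r are descriptions, since the values share an array.

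Within groups, 40 relations among the 5 genes and with the means of adipocyte and endothelial markers were computed, of which 4 had an exact permutation p below 0.05 and none after Benjamini-Hochberg adjustment. Outdoors *PLIN5* and *LIPE* had r = 0.83 (exact permutation p = 0.0274, adjusted p = 0.274; rho = 0.61, p = 0.167), and r was -0.06 without the 2 animals farthest from the *PLIN5* median, so the relation rests on those animals. Indoors their r was 0.07 (exact permutation p = 0.885, adjusted p = 0.989; rho = 0.21, p = 0.662). *PLIN2* and *PNPLA2* had r = 0.76 indoors (exact permutation p = 0.00417, adjusted p = 0.167; rho = 0.75, p = 0.0663; 0.62 without the 2 farthest animals) and r = 0.13 outdoors (exact permutation p = 0.759, adjusted p = 0.989; rho = 0.14, p = 0.783).

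**Figure D3:**
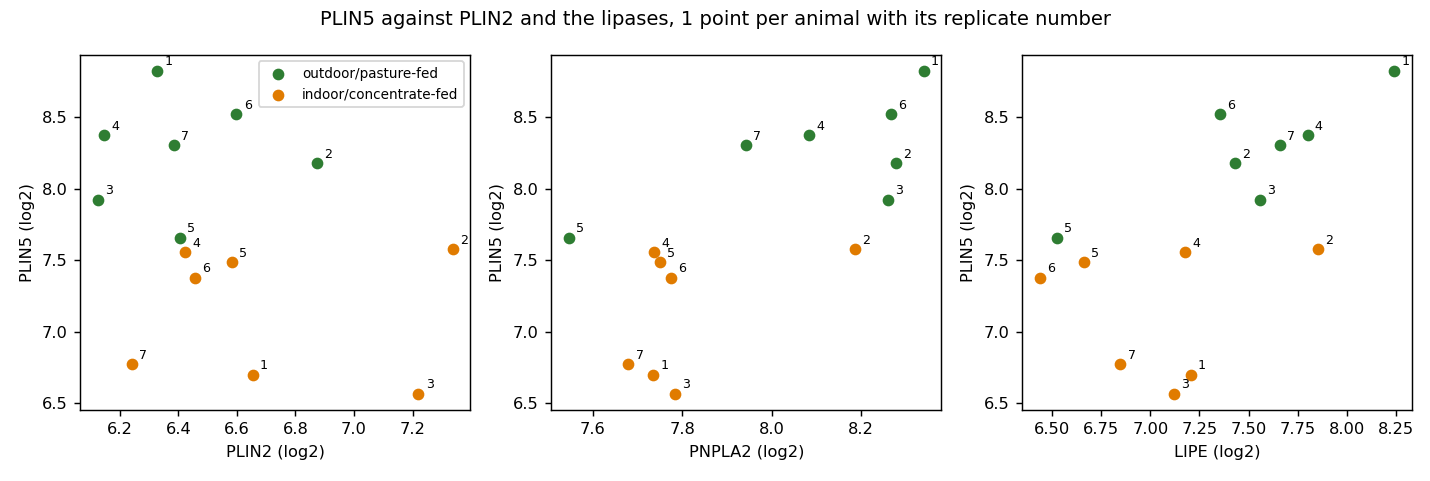
*PLIN5* (vertical axis) against *PLIN2*, *PNPLA2* and *LIPE* (horizontal axes), deposited log2 values, 1 point per animal with its replicate number, outdoor/pasture-fed in green and indoor/concentrate-fed in orange. Outdoor replicates 1 and 5 stand at the upper and lower ends of the outdoor points for *PNPLA2* and *LIPE*, and no such line is seen for *PLIN2*.

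Among 5937 varying probe sets with 1 gene symbol, those most like *PLIN5* in deviations from the group means over 14 arrays were *EMC8*, a subunit of the membrane protein insertion complex of the endoplasmic reticulum (r = 0.91), *SLC25A3*, the mitochondrial phosphate carrier (0.88), the asparaginase *ASRGL1* (0.87), the mitochondrial phosphatase *PGAM5* (0.86) and *MICU3*, a regulator of mitochondrial calcium uptake (0.86). They were chosen for this r. Their own group differences were between -0.03 and 0.10, on probe sets that spread less than *PLIN5*. With the group difference left in, r with *PLIN5* was 0.83 for *SLC25A3*, 0.62 for *ASRGL1*, 0.55 for *MICU3*, 0.50 for *EMC8* and 0.40 for *PGAM5*. In the order by deviations *PNPLA2* stood at place 312, *LIPE* at 597, *PLIN3* at 1666 and *PLIN2* at 2941. The probe sets most like *PLIN2* were *ITGB1BP1* (0.91), *SYNE1* (0.88), *IL1RAP* (0.86), *NFATC1* (0.86) and *CD40* (0.86).

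Other genes of droplets and lipolysis were counted from 3 lists, each gene at its probe set of highest mean. At that probe set, none of their genes passed the adjusted threshold in the limma fit, over all probe sets or among varying ones, against 0.0167% and 0.343% of probe sets passing. By unadjusted p below 0.05, 8 of the 25 varying genes in the lists differed, against 19.9% of varying probe sets. The median differences of the lists were -0.05, -0.02 and -0.03, beside -0.01 for all varying probe sets.

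Of 22 genes listed for the droplet coat and droplet formation, 16 had a probe set and 10 varied, 4 of them on average higher and 6 lower outdoors. *ACSL3*, which activates fatty acids at forming droplets, averaged 8.71 ± 0.17 outdoors and 8.46 ± 0.12 indoors (SD, n = 7 each), and *HSD17B11*, a dehydrogenase found on droplets, averaged 8.90 ± 0.22 outdoors and 8.64 ± 0.19 indoors. Their differences were 0.26 (SE 0.08) and 0.25 (SE 0.11), with limma adjusted p of 0.25 and 0.41. *ACSL3* has 2 further probe sets, with differences of 0.44 and 0.22, and the first of these passed among varying probe sets (limma adjusted p = 0.0286). The study had also chosen *ACSL3* on these arrays. *CIDEC*, a droplet fusion protein of fat cells, spread more among indoor animals (6.89 to 8.40 outdoors, 6.87 to 9.84 indoors).

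Of 22 genes listed for the control of lipolysis by cyclic AMP and insulin, 14 had a probe set and 8 varied, 4 higher and 4 lower. The 2 with an unadjusted p below 0.05 both encode caveolar proteins, *CAV1* (11.97 ± 0.06 outdoors, 11.88 ± 0.04 indoors) and *CAVIN1* (11.22 ± 0.09 outdoors, 11.10 ± 0.10 indoors), with differences of 0.09 and 0.12 and limma adjusted p of 0.25 and 0.394. The second *CAV1* probe set differed by 0.36. The stimulatory G protein *GNAS*, the protein kinase A subunits *PRKAR1A* and *PRKAR2A*, the insulin receptor *INSR* and *AKT2* differed by between -0.08 and 0.01 at the probe sets used, none with an unadjusted p below 0.05. Another *GNAS* probe set differed by 0.22, with an unadjusted limma p of 0.0432 and an adjusted p of 0.417 over all probe sets.

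Of 14 genes listed as other neutral lipid lipases or parts of lipophagy, 10 had a probe set and 7 varied, 3 higher and 4 lower. *LPL*, which hydrolyses circulating triglyceride at the capillary wall, averaged 11.75 ± 0.50 outdoors and 11.17 ± 0.49 indoors (SD, n = 7 each), a difference of 0.58 (SE 0.26, limma adjusted p = 0.427). Differences were negative for the chaperone *HSPA8*, which delivers droplet coat proteins to lysosomes (13.02 ± 0.22 outdoors, 13.34 ± 0.18 indoors, difference -0.32), the monoglyceride lipase *ABHD6* (7.48 ± 0.19 outdoors, 7.77 ± 0.23 indoors, difference -0.30) and *TFEB*, a transcription factor of lysosomal genes (6.85 ± 0.17 outdoors, 7.01 ± 0.06 indoors, difference -0.17). Their limma adjusted p were 0.28, 0.331 and 0.372.

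**Figure D4:**
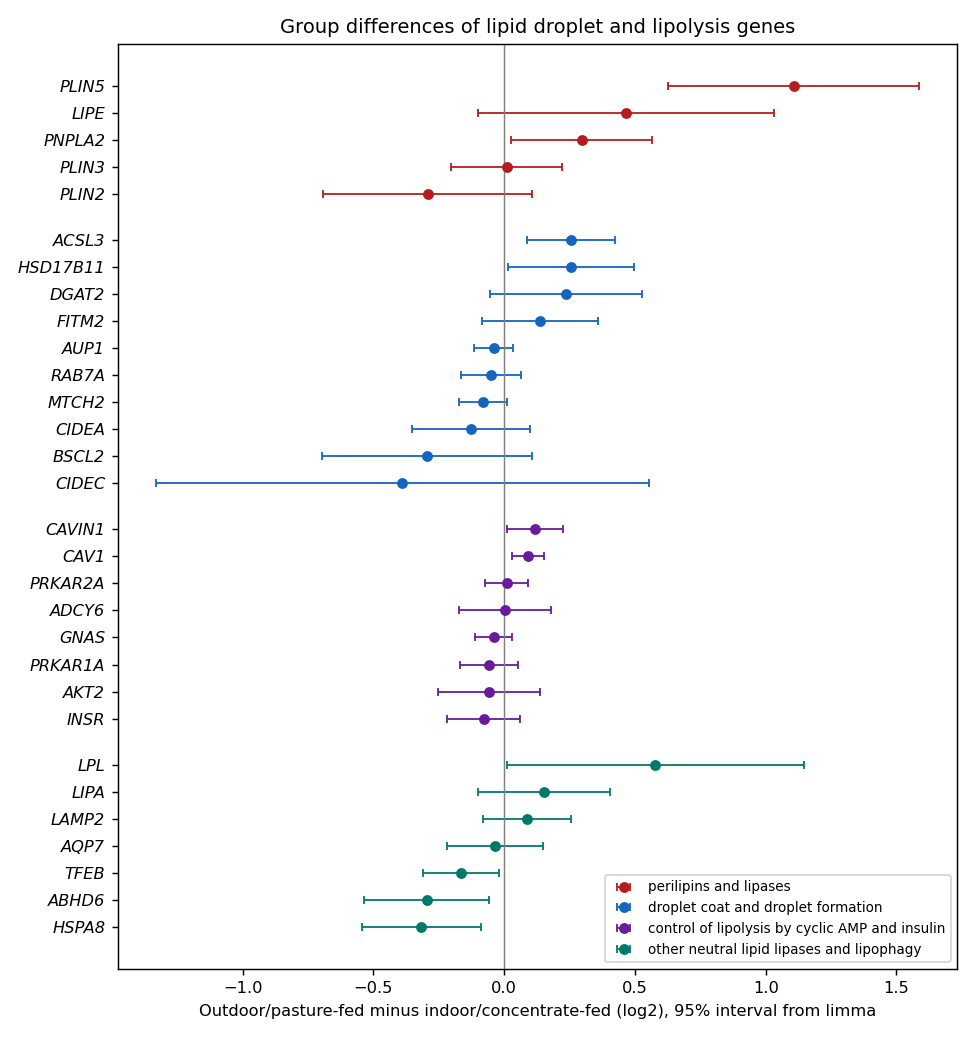
Group differences in log2, positive where outdoor/pasture-fed was higher than indoor/concentrate-fed, with 95% intervals from limma, for the 5 varying perilipin and lipase genes and the 25 varying genes of the 3 lists, coloured by list. *PLIN5* at 1.11 has the highest difference plotted, and its interval starts at 0.63. The interval of *CIDEC* is the widest.

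Fat cells within the muscle also express *PLIN2*, *PNPLA2* and *LIPE*. Of 11 adipocyte markers, 10 had a probe set and 7 varied, and all 7 were on average lower outdoors, none with an unadjusted p below 0.05. Their mean ran from 7.17 to 7.92 outdoors, against 7.23 to 8.87 indoors, with the summed level at 12.35 to 12.70 outdoors and 12.06 to 13.04 indoors (log2 of the sum). The defining markers *ADIPOQ* (5.71 to 6.05 outdoors, 5.58 to 6.65 indoors) and *LEP* (5.42 to 5.76 outdoors, 5.56 to 6.72 indoors) were low on the scale of the array, *FABP4* read 7.59 to 9.28 outdoors and 7.11 to 10.88 indoors, and no probe set carries the symbol *PLIN1*. The adipocyte mean had an r of at most 0.59 in size with any of the 5 genes within a group, and none had an exact permutation p below 0.05. Without the 2 animals farthest from the gene's median, r was 0.86 for *PNPLA2* outdoors (-0.01 with all 7) and 0.81 for *PLIN2* indoors (-0.02 with all 7). In these 2 cases the lack of a relation over all 7 animals therefore rests on the animals left out.

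Endothelial markers read higher outdoors. Of 6 listed, all 6 had a probe set and 5 varied, and all 5 (*PECAM1*, *CDH5*, *TEK*, *KDR* and *EMCN*) were higher outdoors at an unadjusted limma p below 0.05, against 9.23% of varying probe sets, with none passing after adjustment (adjusted p = 0.147 for *PECAM1* over all probe sets). Their mean ran from 9.50 to 9.93 outdoors, against 8.86 to 9.45 indoors, with no overlap, which 0.488% of single varying probe sets also showed in this direction. With *PLIN5* it had r = -0.15 outdoors (exact permutation p = 0.739, adjusted p = 0.989; rho = -0.18, p = 0.713) and r = 0.77 indoors (exact permutation p = 0.00833, adjusted p = 0.167; rho = 0.82, p = 0.0341; 0.51 without the 2 farthest animals). Without the 2 animals farthest from the *PLIN5* median, r was -0.94 outdoors, so the value of -0.15 rests on those animals. *LPL*, *CAV1* and *CAVIN1* are also expressed in or held at capillaries. The part of the endothelial markers in the differences of these genes and of *PLIN5* was not tested. Leukocyte and fibroblast markers, 5 and 6 of them varying, had none with an unadjusted p below 0.05. All 5 leukocyte markers were on average higher outdoors, and of the fibroblast markers 3 were higher and 3 lower.

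**Figure D5:**
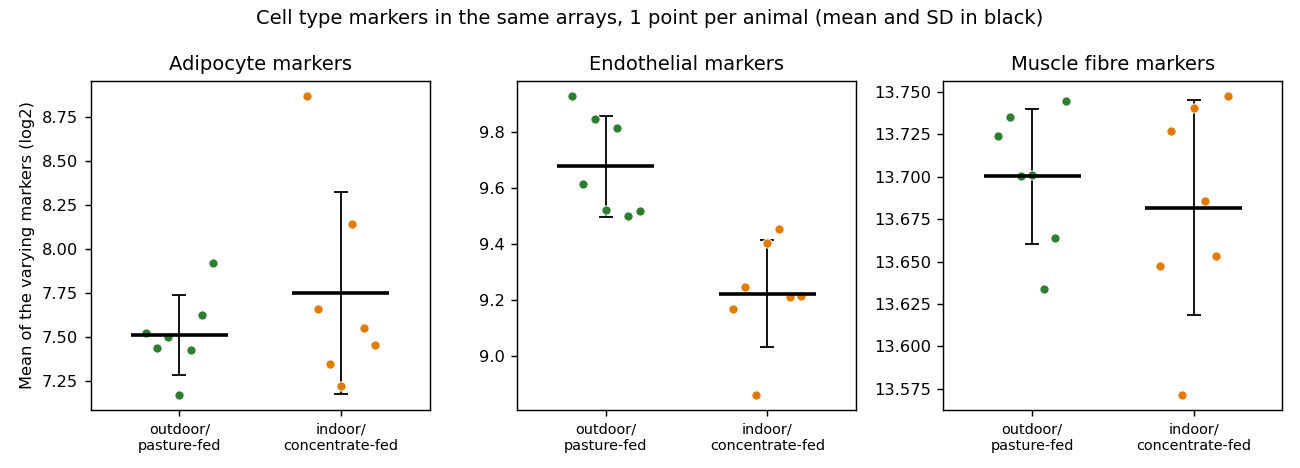
Mean log2 value of the varying adipocyte (7), endothelial (5) and muscle fibre (4) markers, 1 point per animal with outdoor/pasture-fed on the left, a black line at the mean and bars of 1 SD (n = 7 each). Vertical axes differ between panels. Endothelial markers lie higher outdoors without overlap, while adipocyte markers spread more among the indoor animals.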

How the data were processed

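Total RNA of LD muscle was amplified to cDNA and hybridised by the authors, who quantile normalised the arrays and summarised probe sets with FARMS (qFarms). The deposited log2 values were used as they stand. Quantile normalisation sets the arrays to a common distribution, so that differences are relative to the other transcripts. The authors' filter on informative probe sets needs probe-level data and was not repeated.

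The 112 control probe sets were left out. Outdoor/pasture-fed minus indoor/concentrate-fed differences were fitted over 24016 probe sets with lmFit and eBayes of limma 3.58.1 (R 4.3.3), with group as the only term and a Benjamini-Hochberg adjusted threshold of 0.05. The fit was repeated among the 9623 varying probe sets. Exact permutation tests covered all 3432 assignments of 14 arrays to 7 and 7. Both tests were tested on simulated data. Intervals are at the 95% level. With 7 arrays a group, their number limits the precision. Gene symbols come from the platform annotation: 13292 probe sets have 1 symbol, 86 several and 10638 none, and 13263 matched the reference by gene identifier. In lists each gene counts once, at its probe set of highest mean. Genes named are all members, up to 6 per list with an unadjusted p below 0.05, and the 5 probe sets most like *PLIN5* and *PLIN2*. *CIDEC*, the further *ACSL3*, *CAV1* and *GNAS* probe sets and the other genes of the cyclic AMP list were named after their values were seen. Members and lists were chosen with earlier results of these data known. The alternatives were a replicate block, filters on SD and mean, renewed normalisation, centring, trended and robust priors, array weights, a hybridisation control covariate and leaving out each array. The labels name no batch.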

Additional observations from a re-analysis of the deposited data

Results flagged for a closer look

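In 18 groups of 7 arrays examined, 2 had an animal far from the others, and chance marks about 1 group in 20. Both were indoor replicate 2, which read 8.18 for *PLIN3* (next highest indoor animal 7.65) and 8.19 for *PNPLA2* (next highest 7.78). The same animal had the highest indoor value of all 5 varying genes, and why was not tested.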

How the results depend on the processing

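*PLIN5* was higher outdoors by 1.01 to 1.21 under all 39 alternatives, but its call depends on which probe sets are tested. It passed among varying probe sets (1.11, limma adjusted p = 0.0368, 1 of the 5 genes called) and with an SD above 0.1 (1.11, adjusted p = 0.0242, 1 called), the latter chosen after seeing the data, and under no other setting that kept all arrays (adjusted p 0.0750 to 0.314). Fewer probe sets are tested under the SD filters, and the SE that limma gives for *PLIN5* changes as well. This SE was 0.221 over all probe sets, 0.208 among varying ones and 0.203 with an SD above 0.1. The limma prior had 0.214 degrees of freedom over all probe sets and 2.02 among varying ones. The part of each change in the call was not tested. Leaving out each array in turn gave 1.01 to 1.21 with adjusted p from 0.132 to 0.267 over all probe sets, and from 0.0296 to 0.0876 among varying ones, where it passed for 6 of 14 arrays (the count of genes called was 0 to 1). The 8 arrays whose absence ended that call were outdoor replicates 1, 3, 4, 6 and 7 and indoor replicates 1, 3 and 7. *PLIN3* changed sign when an array was left out (-0.024 to 0.10, adjusted p at least 0.312), and *PLIN2* (-0.37 to -0.19), *PNPLA2* (0.26 to 0.39) and *LIPE* (0.34 to 0.63) kept their direction and passed under no alternative. *PLIN2* has no value with the filter on the mean, because its own mean lies below the median. The *PLIN5* contrasts with *PLIN2* (1.22 to 1.51), *PLIN3* (1.004 to 1.21) and *PNPLA2* (0.72 to 0.89) passed under each of 16 alternatives. That with *LIPE* (0.53 to 0.78) passed under 10, and the 6 losses each came from leaving out 1 array. The 3 lists, with 1 probe set a gene, had 0 past the threshold under all 39 alternatives; a further *ACSL3* probe set, not counted there, passed among varying probe sets. Same-numbered animals did not deviate together (r from -0.18 to 0.24, over 0.1 in 2 of 7 pairs, and 2 of 7 outdoor arrays correlated best with their own number), so the numbers were not taken as pairs. With a replicate block the *PLIN5* difference of 1.11 had an adjusted p of 0.314 over all probe sets and 0.107 among varying ones, and the count of probe sets called was 2 in either fit, against 4 and 33 without the block. Over all probe sets the count called was 1 to 8 with an array left out, 26 with centring on array medians and 1 with the hybridisation control covariate. Among fewer probe sets it was 17 of 12008 with the filter on the mean and 37 of 8072 with an SD above 0.1, and the 33 among varying ones became 7 without outdoor replicate 4 and 68 without indoor replicate 6, the lowest and highest with an array left out. The cause was not tested. Flat probe sets limit what can be said of *ABHD5*, *G0S2* and 3 of the *LIPE* probe sets.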
